A study of Mus musculus with 6 samples.

Results

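Neutrophils were followed here in leukocytes sorted from mouse kidney, where they were chosen from raw droplet counts by a rule on 10 genes. A barcode of the 10x matrices had to hold at least 500 gene UMIs (unique molecular identifiers, which mark single captured RNA molecules), at least 200 genes and at most 15% mitochondrial UMIs. S100a8 and S100a9 together, the calprotectin subunits, had to make up at least 1% of its UMIs, and at least 1 UMI had to come from Csf3r, Cxcr2 or Retnlg. The complement genes C1qa, C1qb and C1qc, which mark resident macrophages, had to stay below 0.3% together, and Cd3e and Cd79a, of T and B cells, had to be at 0. The rule found 436 neutrophils among 30052 barcodes that passed the quality limits, 410 of them in the rhabdomyolysis libraries and 26 in the control libraries.

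The study sorted live CD45+ cells, CD45 being the surface protein shared by leukocytes, from digested kidneys of C57BL/6J mice aged 8 weeks. It holds 3 libraries labelled Rhabdo, here called rhabdomyolysis, and 3 labelled Control. Each was read as a 3' gene library with antibody tags, among them CD4, CD8a, F4/80, CD3 and P2X7R. Rhabdomyolysis is the breakdown of skeletal muscle, whose released heme proteins can injure the kidney. The labels used here name neither the agent and time of the rhabdomyolysis nor a mock treatment of the controls. Nothing in them ties a library to an animal of its own, and the p-values therefore reflect library-to-library spread alone, part of which may be technical.

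Neutrophils are short-lived granulocytes that leave the bone marrow with most of their granule proteins already made. They enter injured tissue along chemokine gradients read by Cxcr2, and then transcribe chemokines and cytokines that draw in further cells. S100A8 and S100A9 form much of their cytosolic protein, Csf3r is the receptor for G-CSF, and Retnlg is a resistin-like secreted protein that mouse neutrophils express.

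The genes that chose the cells had these values, which are a description. S100a8 and S100a9 made up a median of 7.81%, 7.83% and 8.27% of a neutrophil's UMIs in rhabdomyolysis libraries 1 to 3, and 11.0%, 12.6% and 8.25% in control libraries 1 to 3. The highest share in a rhabdomyolysis neutrophil was 45.2%. Within 0.25 percentage points above the limit lay 5, 5 and 2 rhabdomyolysis neutrophils, and within 0.25 points below it lay 3, 8 and 3 barcodes that met every other condition. No control barcode lay in either range. Csf3r had a UMI in 86.4%, 51.4% and 82.0% of rhabdomyolysis neutrophils and in 100%, 87.5% and 100% of control neutrophils. Retnlg reached 10101, 20204 and 7225 counts per 1000000 gene UMIs (CPM) in rhabdomyolysis neutrophils, against 13898, 22227 and 4006 CPM in control neutrophils, so that its levels overlapped between the groups. Rhabdomyolysis droplets of 100 UMIs or fewer, which hold mostly free RNA, had 0.460%, 0.539% and 0.371% S100a8 and S100a9, against 0.0140%, 0.0249% and 0.00897% in control droplets.

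The label was checked on markers that the rule did not use. A list of 20 such neutrophil markers summed to 16882, 17911 and 18953 CPM in rhabdomyolysis neutrophils and to 22685, 24128 and 20940 CPM in control neutrophils. It had 16 to 19 members detected in each rhabdomyolysis library and 14 to 16 in each control library. Camp, an antimicrobial peptide of immature cells, was at 0 in every neutrophil. Ly6g, the usual surface marker of mouse neutrophils, had a UMI in 6.80%, 8.94% and 3.91% of rhabdomyolysis neutrophils and in 20%, 12.5% and 0% of control neutrophils. Markers of basophils and mast cells were at 0 in all 6 libraries. Other lists were not clean. In rhabdomyolysis libraries 1 and 2, 12 macrophage markers summed to 2008 and 1432 CPM in neutrophils, against 39324 and 43397 CPM in macrophages. That list includes the C1q genes, which the rule held low. T cell markers had 21 and 3 UMIs in these neutrophils, B cell markers 2 and 0, and eosinophil markers 7 and 3.

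Several kinds of member went against the label or stood apart. Of the rhabdomyolysis neutrophils, 9, 11 and 10 held more than 5000 UMIs, while no control neutrophil did. Among these, 8, 6 and 9 carried a UMI of the classical monocyte genes Ly6c2, Ccr2, Fn1, F13a1 or Vcan, against 5 of 94, 15 of 168 and 9 of 118 members of 5000 UMIs or fewer. Their Lyz2, the lysozyme gene that monocytes express strongly, stood at 25710, 8991 and 21392 CPM, against 1596, 619 and 1890 CPM in the members of 5000 UMIs or fewer. Monocytes of the same libraries had 18700, 12727 and 22718 CPM. Csf3r, which the rule used, is given as a description: it was at 139, 147 and 209 CPM in these members and at 1113, 606 and 1159 CPM in the other members. A score from simulated doublets (droplets with more than 1 cell) called 4, 2 and 0 rhabdomyolysis neutrophils, and the members over 5000 UMIs were kept in. Levels of a library are taken on summed UMIs, so these members weigh more in them than their 8.74%, 6.15% and 7.81% of cells. The monocyte genes named above together stood at 658, 387 and 660 CPM in all rhabdomyolysis neutrophils. In the members of 5000 UMIs or fewer they stood at 78.6, 56.0 and 57.3 CPM. Levels below are of all members unless a limit is named. The counts of called genes between rhabdomyolysis and control neutrophils are therefore also given without the members over 5000 UMIs. A second kind had no UMI of Malat1, a nuclear RNA abundant in intact cells, and is described after the gene programs. The third was in rhabdomyolysis library 2, where 5 neutrophils held 8160 hemoglobin UMIs, 8158 of them in 3 barcodes, against 4 and 3 hemoglobin UMIs in all neutrophils of rhabdomyolysis libraries 1 and 3 and none in control neutrophils. Hemoglobin reached 5% of UMIs in only 1 of those 5 neutrophils. That barcode held most of these UMIs and was itself a member over 5000 UMIs.

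The share of neutrophils among quality barcodes was 3.06% (103 of 3363), 3.60% (179 of 4972) and 1.98% (128 of 6474) in the rhabdomyolysis libraries. In the control libraries it was 0.202% (10 of 4962), 0.162% (8 of 4934) and 0.150% (8 of 5347). The exact binomial 95% intervals, which cover counting error only, ran over 2.51% to 3.70%, 3.10% to 4.16% and 1.65% to 2.35% in the rhabdomyolysis libraries, and no upper bound of a control library passed 0.370%. The mean share was 2.88% ± 0.827 in rhabdomyolysis and 0.171% ± 0.0271 in control (SD, n = 3 each). The rule was written knowing that its members lay mostly in rhabdomyolysis, so no test is given. The denominators differed between the groups. Only 1047, 1647 and 1583 quality barcodes of the rhabdomyolysis libraries had Malat1 at 0.1% of UMIs or more, against 3568, 3020 and 2431 of the control libraries. Among those, neutrophils made up 9.46%, 7.65% and 7.39% in rhabdomyolysis and 0.280%, 0.265% and 0.329% in control.

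**Figure D1:**
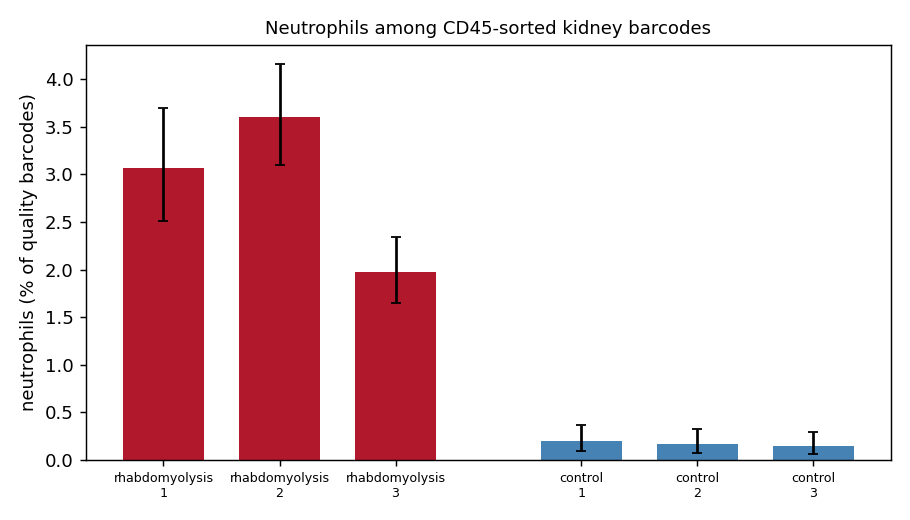
Neutrophils as a percentage of quality barcodes in each library, with exact binomial 95% intervals. The 3 rhabdomyolysis libraries lie between 1.98% and 3.60%, and the 3 control libraries between 0.150% and 0.202%.

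Neutrophils were shallow beside rhabdomyolysis monocytes, whose medians were 8750.5, 9865.5 and 11299 UMIs. All quality barcodes of those libraries had lower medians than neutrophils, at 1462, 1619 and 1977 UMIs. The neutrophil median was 1759, 1909 and 2054.5 UMIs and 720, 754 and 807.5 genes in the rhabdomyolysis libraries. In the control libraries it was 2381, 2012.5 and 2335.5 UMIs. The summed counts behind each library's values were 244524, 405663 and 318048 UMIs for rhabdomyolysis neutrophils, and 22305, 17366 and 18720 for control neutrophils. A gene at 50 CPM therefore gives about 1 UMI in a control library, and low control values rest on few molecules. The median mitochondrial share was 0.316%, 0.449% and 0.327% in rhabdomyolysis neutrophils, against 1.97%, 0.547% and 0.864% in control neutrophils. Each of the 6 libraries held 10816727 to 22656666 gene UMIs in all. No barcode was called a neutrophil in more than 1 library, and 4 neutrophil barcodes were also quality barcodes of another library.

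Set against monocytes of the same injured kidneys, neutrophils held more Il1b and Cxcl2 per UMI, and carried transcripts of Stfa2l1, Mmp9, Hdc and G0s2 that monocytes nearly lacked. Neutrophils held less Ccl2 and Ccl7, and less of most MHC class II and lysosomal genes tested. Monocytes were barcodes with Ly6c2 and a UMI of Ccr2, Fn1, F13a1 or Vcan, low C1q, and S100a8 with S100a9 under 1%. They numbered 30, 92 and 100 in rhabdomyolysis libraries 1 to 3, at medians of 8750.5, 9865.5 and 11299 UMIs. Counts were summed per class and library and fitted with edgeR's quasi-likelihood test, with the library as a block. Both classes were gated on genes of these same barcodes, so genes that accompany the gate genes had to differ. The calls below are a description of the classes, and no p-value is printed for them. Of 3800 genes tested, 58.5% were called at an adjusted p under 0.05, 1112 (29.3%) higher and 1110 (29.2%) lower in neutrophils. The libraries of the classes did not overlap for 60.6% of genes. Scaling by library totals in place of TMM moved the split to 915 higher and 1376 lower, and the median log2 difference over all genes to -0.27 in place of -0.03. Without the neutrophils over 5000 UMIs, 2136 of 3260 genes were called.

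Inflammatory mediators led by abundance. Cxcl2, a chemokine read by Cxcr2, stood at 32913, 36000 and 30593 CPM in neutrophils and at 7350, 5444 and 4336 CPM in monocytes, a log2 difference of 2.81 ± 0.17 (SE). Il1b, the precursor of interleukin-1 beta, stood at 14371, 12582 and 12844 CPM in neutrophils and at 827, 561 and 715 CPM in monocytes (log2 4.50 ± 0.17). Neutrophils lay above monocytes in all 3 libraries for both, and the classes did not overlap for 60.6% of all genes tested. Csf1, the growth factor of macrophages, had 188, 131 and 274 CPM in neutrophils and 0, 2.16 and 3.50 CPM in monocytes. Cxcl3, Ptgs2 (cyclooxygenase-2) and Il1rn (the interleukin-1 receptor antagonist) were higher in neutrophils by 3.68, 3.82 and 3.93 on the log2 scale. Acod1, which makes itaconate, had 352, 325 and 513 CPM in neutrophils, against 7.58, 10.8 and 13.1 CPM in monocytes. Of 23 cytokine, chemokine and lipid mediator genes tested, 15 were higher and 6 lower, beside 29.3% and 29.2% of all genes. Their median log2 difference was 1.46. The lower ones included the monocyte chemoattractants: Ccl2 stood at 164, 219 and 352 CPM in neutrophils, against 3170, 3463 and 3471 CPM in monocytes. Ccl7 had 1 UMI in neutrophils and 630 in monocytes, a level 262-fold lower in neutrophils (counting interval 46.8 to 10351).

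Several transcripts were absent from the 2331277 UMIs of the rhabdomyolysis monocytes. Stfa2l1, a stefin (an inhibitor of cysteine proteases), had 425, 907 and 673 CPM in neutrophils and was at least 551-fold higher, with the floor set at 3 counts over the monocytes. Asprv1, a retroviral-like aspartic protease, was at least 330-fold higher, and Chil1, a chitinase-like protein, at least 99.5-fold higher. Slc40a1, the iron exporter ferroportin, had 65.4, 51.8 and 78.6 CPM in neutrophils and was at least 49.8-fold higher. The stefins Stfa1, Stfa2l1 and Cstdc4 are near-identical copies, so how reads were divided among them is uncertain. G0s2, an inhibitor of lipolysis, stood at 4069, 3158 and 5311 CPM in neutrophils, against 22.8, 37.8 and 2.63 CPM in monocytes (log2 7.98 ± 0.40). Mmp9, the gelatinase of tertiary granules, stood at 589, 809 and 902 CPM in neutrophils, against 0, 6.48 and 0.876 CPM in monocytes. Hdc, which makes histamine, stood at 736, 937 and 1188 CPM in neutrophils, against 0, 13 and 0 CPM in monocytes. The mouse lncRNA Mirt1 had 216 UMIs in neutrophils and 2 in monocytes, a level 260-fold higher in neutrophils (counting interval 71.1 to 2161).

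Granule genes are given by compartment. Of 13 secondary and tertiary granule genes tested, 9 were higher and 2 lower in neutrophils (median log2 1.08), beside 29.3% and 29.2% of all genes. Lcn2, the iron-siderophore binding lipocalin, stood at 3754, 4795 and 2509 CPM in neutrophils, against 1168, 1088 and 683 CPM in monocytes. Pglyrp1, a peptidoglycan recognition protein, stood at 695, 639 and 692 CPM in neutrophils, against 7.59, 16.2 and 28 CPM in monocytes. Both azurophil genes tested, Ctsc and Prtn3, were lower in neutrophils, too few genes to set the compartments apart. Elane and Mpo, which are transcribed in promyelocytes, were at 0 in every neutrophil. Ngp, a secondary granule protein gene of marrow precursors, had a UMI in 5.83%, 12.3% and 1.56% of rhabdomyolysis neutrophils, and in 0 of 26 control neutrophils of 3 libraries, where by counting error alone up to 11.5% of cells could have a UMI. In macrophages of the rhabdomyolysis libraries, which should lack Ngp, 0.0415% of barcodes at most had a UMI, at medians of 1354 to 1804.5 UMIs. Most of those macrophage barcodes had no Malat1 UMI. Chil3, a chitinase-like protein kept in granules, did not pass the test against monocytes: it stood at 12428, 5825 and 8307 CPM in neutrophils and at 12466, 11437 and 9187 CPM in monocytes. Without the neutrophils over 5000 UMIs it was lower in neutrophils by the test, at a log2 difference of -0.67.

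Receptors and signalling genes followed, their counts to be read beside 29.3% of all genes higher and 29.2% lower in neutrophils. Of 15 chemoattractant and growth factor receptor genes tested, 10 were higher and 3 lower in neutrophils, where Cxcr4 had 405, 367 and 506 CPM, against 56.9, 46.5 and 40.3 CPM in monocytes. Cxcr4 is the receptor that holds neutrophils in, and returns aged ones to, the marrow. Il1r2, the decoy receptor of interleukin-1, stood at 1902, 3325 and 1670 CPM in neutrophils, against 303, 502 and 77.9 CPM in monocytes. Of 24 pattern recognition and Fc receptor genes tested, 14 were higher and 4 lower, among the higher ones Cd14, Tlr4 and Trem1 at log2 2.22, 2.36 and 2.84. Of 13 genes of NF-kB inhibition and feedback, 10 were higher and none lower, including Nfkbia at 6601, 4790 and 5222 CPM in neutrophils, against 1938, 1889 and 1368 CPM in monocytes. Of 19 survival and apoptosis genes tested, 15 were higher and 3 lower. Mcl1, which neutrophils depend on to live, had 2638, 2916 and 2673 CPM in neutrophils, against 876, 1171 and 999 CPM in monocytes. Mxd1, a MAX partner that opposes Myc, stood at 1076, 1107 and 1245 CPM in neutrophils, against 26.6, 35.7 and 21 CPM in monocytes.

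Among the lists with more genes lower than higher in neutrophils were those of antigen presentation, lysosomes and respiration. Over all genes tested, 29.2% were lower and 29.3% higher. All 7 genes tested of MHC class II presentation were lower, with a median log2 difference of -2.43, and Cd74, the invariant chain, stood at 135, 111 and 154 CPM in neutrophils, against 728, 175 and 926 CPM in monocytes. Of 17 lysosomal genes tested, 13 were lower and 1 higher. Of 46 oxidative phosphorylation genes, 32 were lower and none higher (median log2 -0.55), a count that was 39 with library totals. Of 17 glycolysis and hypoxia genes, 8 were lower and 4 higher. Among heme and iron genes Fth1, the ferritin heavy chain, stood at 22599, 27772 and 19497 CPM in neutrophils, against 10183, 13592 and 9684 CPM in monocytes. Hmox1, which breaks down heme, ran the other way at 77.7, 69.0 and 84.9 CPM in neutrophils, against 133, 487 and 356 CPM in monocytes. Arg1 had 1 UMI in neutrophils and 614 in monocytes. Timp1 and Fabp7 had no UMI in neutrophils and were at least 20.5-fold and 14.5-fold lower there. Apoe stood at 1497, 924 and 673 CPM in neutrophils, against 8013, 6524 and 3899 CPM in monocytes.

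The oxidase and interferon lists were mixed, beside 29.3% of all genes higher and 29.2% lower in neutrophils. Of 7 NADPH oxidase genes, which make superoxide, 5 were higher and 2 lower in neutrophils. With library totals the count was 2 higher and 2 lower. Ncf1 stood at 409, 330 and 513 CPM in neutrophils, against 121, 76.7 and 116 CPM in monocytes, while Cybb, the catalytic subunit, stood at 188, 91.2 and 201 CPM in neutrophils, against 281, 364 and 454 CPM in monocytes. Of 20 interferon response genes, 10 were higher and 4 lower. Ifitm1 stood at 2793, 3320 and 2088 CPM in neutrophils, against 254, 154 and 231 CPM in monocytes, and Bst2 at 32.7, 64.1 and 78.6 CPM in neutrophils, against 201, 218 and 248 CPM in monocytes. Of 29 transcription factors tested, 17 were higher and 6 lower. Egr1 and Cebpd were higher in neutrophils by 3.07 and 2.30 on the log2 scale, and the monocyte factors Irf8 and Klf4 differed by -2.06 and -2.26. Of 7 glucocorticoid-responsive genes, 5 were higher and 1 lower, including Per1 at 180, 136 and 148 CPM in neutrophils, against 22.8, 40.0 and 17.5 CPM in monocytes. That list also holds Il1r2, a neutrophil marker.

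**Figure D2:**
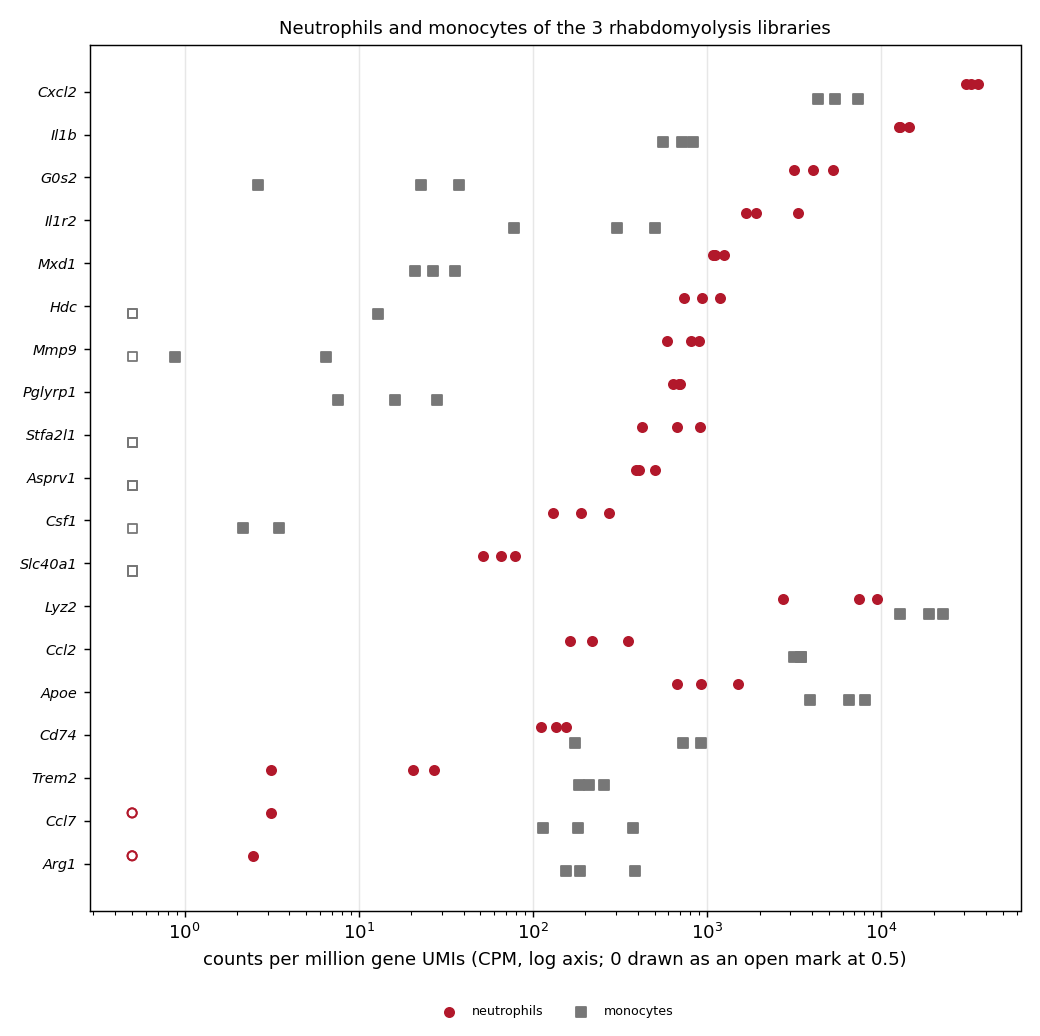
Level of 19 genes in neutrophils (circles) and monocytes (squares) of the 3 rhabdomyolysis libraries, in CPM on a log axis, each mark a library and open marks a level of 0. Neutrophils lie right of monocytes in every library from Cxcl2 down to Slc40a1, and left of them from Lyz2 down to Arg1.

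The same fit against C1q macrophages, of which the rhabdomyolysis libraries held 2166, 2408 and 4240, called 48.9% of 8791 genes, 1836 (20.9%) higher and 2461 (28.0%) lower in neutrophils. Of those macrophage barcodes, 78.9%, 74.8% and 85.1% had no Malat1 UMI, against 3.88%, 27.9% and 8.59% of the neutrophils. With both classes limited to Malat1 at 0.1% of UMIs or more, 1696 genes were higher and 2082 lower of 7942. The 15 largest rises included 3 stefins (Stfa2l1, Stfa1 and Cstdc4) and the granule genes Ngp, Pglyrp1 and Mmp9. Ngp stood at 94.1, 594 and 22.0 CPM in neutrophils, against 0, 0.345 and 0 CPM in macrophages. Wfdc21, of the whey acidic protein family, stood at 1243, 1721 and 1141 CPM in neutrophils, against 4.49, 5.17 and 2.75 CPM in macrophages. H2-Q10, a class I MHC gene, stood at 343, 303 and 280 CPM in neutrophils, against 1.26, 1.21 and 0.533 CPM in macrophages. Mgl2, a lectin of macrophages and dendritic cells, had no UMI in neutrophils and 286, 47.6 and 630 CPM in macrophages. These classes too were gated in the same barcodes, and the values are a description. Without the neutrophils over 5000 UMIs, 1626 genes were higher and 3029 lower of 8708.

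Between rhabdomyolysis and control kidneys, neutrophils of the injured kidneys held more chemokine messenger RNA, more Cd14 and Il1r2, and Chil3 where control neutrophils had none. They held less Fos, Fosb and Atf3, genes of the early response, while the feedback genes Tnfaip3, Dusp2, Ier3 and Socs3 were called higher. The comparison is of summed neutrophil barcodes of each group, and members over 5000 UMIs lay in rhabdomyolysis alone. Changes within a cell and changes in the mix of members were not told apart. The rule was applied alike in both groups, and the genes it used are left out of what follows. Of 1649 genes tested with edgeR's quasi-likelihood test on the library sums, 16.4% were called at an adjusted p under 0.05 (Benjamini-Hochberg), 181 (11.0%) higher and 90 (5.46%) lower in rhabdomyolysis. The median log2 change over all genes was 0.16. Scaling by library totals brought it to -0.02 and the split to 146 higher and 125 lower. Without the members over 5000 UMIs, 119 of 1273 genes were called, 62 higher and 57 lower. Without members that had a monocyte UMI, 124 of 1178 were called. The control side rests on 26 cells. On the same 1649 genes, leaving out rhabdomyolysis library 1, 2 or 3 gave 191, 242 or 280 calls, and leaving out control library 1, 2 or 3 gave 165, 152 or 169. With genes filtered anew the counts were 123 of 380, 135 of 385 and 170 of 384 without a rhabdomyolysis library, and 158 of 3193, 176 of 3278 and 194 of 3243 without a control library.

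Chil3 had 3039, 2363 and 2642 UMIs in rhabdomyolysis neutrophils and none in the control neutrophils. This is 12428, 5825 and 8307 CPM, against 0, 0 and 0 CPM, and at least 162-fold higher in rhabdomyolysis with the floor at 3 counts over the controls (edgeR adjusted p = 4.04e-08). A UMI of Chil3 was present in 83.5%, 77.7% and 75% of rhabdomyolysis neutrophils, against 0 of 10, 8 and 8 control neutrophils. Over these 26 cells of 3 libraries, counting error alone allows a UMI in up to 11.5% of cells, which does not limit the share of cells that express the gene. With every cell thinned to 500 UMIs the rhabdomyolysis shares were 73.8%, 63.1% and 57.0%. Free RNA of the rhabdomyolysis libraries also held Chil3, at 1367, 1216 and 1103 CPM, against 48.2, 30.8 and 33.3 CPM in control. Macrophages of the same libraries, at medians of 1354, 1510.5 and 1804.5 UMIs, had a Chil3 UMI in 2.49%, 2.49% and 2.57% of barcodes. Most of those macrophage barcodes had no Malat1 UMI. In the members of 5000 UMIs or fewer Chil3 stood at 8200, 4918 and 5001 CPM. Monocytes had the gene in both groups, at 12466, 11437 and 9187 CPM in rhabdomyolysis and 1531, 1419 and 874 CPM in control.

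Of 16 cytokine, chemokine and lipid mediator genes tested, 8 rose and 2 fell in rhabdomyolysis neutrophils, beside 11.0% and 5.46% of all genes. Their median log2 change was 1.31, beside 0.16 over all genes. Cxcl2 stood at 32913, 36000 and 30593 CPM in rhabdomyolysis neutrophils, against 8160, 5240 and 11806 CPM in control neutrophils, a log2 change of 2.15 ± 0.24 (SE; edgeR adjusted p = 2.07e-05). Cxcl3, a close relative of Cxcl2 beside it on chromosome 5, had 855, 1282 and 717 CPM in rhabdomyolysis neutrophils and no UMI in control neutrophils, and was at least 19.2-fold higher (edgeR adjusted p = 3.58e-05). No rhabdomyolysis library overlapped a control library for either gene, as for 38.6% of all genes tested. Ccl4, a CC chemokine, had 1071, 796 and 726 CPM in rhabdomyolysis neutrophils, against 44.8, 0 and 53.4 CPM in control neutrophils, which is 2 UMIs and a ratio of 24.6 (counting interval 6.79 to 204). Tnf had 438, 276 and 308 CPM in rhabdomyolysis neutrophils, against 0, 57.6 and 53.4 CPM in control neutrophils, also 2 UMIs, at a ratio of 9.56 (2.62 to 79.3). Il1b, abundant in both groups, was not called: it stood at 14371, 12582 and 12844 CPM in rhabdomyolysis neutrophils and 10760, 9962 and 20513 CPM in control neutrophils, and the groups overlapped. Without control library 3, which had the most, its log2 change was 0.77 with genes filtered anew, where it passed the test, and 0.55 on the same genes, where it did not. Ptgs2 ran lower, at 274, 251 and 591 CPM in rhabdomyolysis neutrophils and 807, 1152 and 1068 CPM in control neutrophils (log2 -1.25 ± 0.35, edgeR adjusted p = 0.0216), a call that was lost without the members over 5000 UMIs, without those with a monocyte UMI, with no filter on low counts, and, on the same genes, without rhabdomyolysis library 1 or control library 2 or 3 (log2 -0.75 to -1.19). The members over 5000 UMIs held 8995, 17023 and 3875 CPM Cxcl2, and without them 7 of 14 mediator genes were higher and 1 lower.

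The promoters of Chil3, Cxcl3 and Cxcl2 are shown because these transcripts separated the groups most by abundance or by absence in control. They are RefSeq sequences of build GRCm38.p6, 250 bases before to 50 bases after the annotated start, written 5′ to 3′ on the gene's strand. The same table held 32851 promoters. Capitals mark 2 motifs. GGGNNNTTC, the opening letters of an NF-kB-type motif, was searched on both strands, overlapping matches counted, and 14.0% of the promoters hold it. TATAAA, searched on the gene's strand, is held by 8.32%. Chil3 lies at chr3:106167515-106167814 on the minus strand, with 1 GGGNNNTTC match and 1 TATAAA. Cxcl3 lies at chr5:90785851-90786150 and Cxcl2 at chr5:90903649-90903948, both on the plus strand, with 3 GGGNNNTTC matches each and 1 TATAAA in Cxcl3 alone. A match is a run of letters and says nothing of binding.
Chil3: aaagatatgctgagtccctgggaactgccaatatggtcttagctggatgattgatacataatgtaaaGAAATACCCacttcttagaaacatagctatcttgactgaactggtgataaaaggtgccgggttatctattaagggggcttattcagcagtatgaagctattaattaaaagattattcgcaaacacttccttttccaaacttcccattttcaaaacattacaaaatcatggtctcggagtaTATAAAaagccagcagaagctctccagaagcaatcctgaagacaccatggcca
Cxcl3: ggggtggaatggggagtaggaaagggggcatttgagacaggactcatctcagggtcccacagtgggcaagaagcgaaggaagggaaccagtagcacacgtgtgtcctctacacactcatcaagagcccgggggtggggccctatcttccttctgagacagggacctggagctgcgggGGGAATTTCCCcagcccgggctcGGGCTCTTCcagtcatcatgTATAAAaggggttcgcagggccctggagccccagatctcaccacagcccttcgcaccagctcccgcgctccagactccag
Cxcl2: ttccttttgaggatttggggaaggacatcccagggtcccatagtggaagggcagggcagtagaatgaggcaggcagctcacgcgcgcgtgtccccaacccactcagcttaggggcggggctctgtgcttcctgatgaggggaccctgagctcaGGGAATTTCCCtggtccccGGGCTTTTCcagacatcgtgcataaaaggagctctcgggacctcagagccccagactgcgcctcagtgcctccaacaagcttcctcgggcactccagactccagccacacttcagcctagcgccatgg

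Receptors, survival genes and granule genes had members that rose. Cd14, the lipopolysaccharide co-receptor, stood at 3742, 4208 and 2852 CPM in rhabdomyolysis neutrophils, against 134, 115 and 160 CPM in control neutrophils (log2 4.89 ± 0.35, edgeR adjusted p = 5.36e-08). It was 5.17 on the log2 scale without the members over 5000 UMIs. Il1r2 stood at 1902, 3325 and 1670 CPM in rhabdomyolysis neutrophils, against 538, 230 and 481 CPM in control neutrophils (log2 2.62 ± 0.37, edgeR adjusted p = 1.58e-04). The groups did not overlap for either gene, as for 38.6% of all genes tested. Monocytes of rhabdomyolysis kidneys also had more Cd14, at 876, 1212 and 688 CPM, against 31.0, 176 and 25.7 CPM in control monocytes. Control monocytes numbered 14, 16 and 8, and that difference was not tested. Of 18 pattern recognition and Fc receptor genes tested, 5 were higher and none lower, beside 11.0% and 5.46% of all genes. Without the members over 5000 UMIs, 3 of 17 were higher. Bcl2a1b, a survival gene of the Bcl2 family, had 1440, 1159 and 1670 CPM in rhabdomyolysis neutrophils, against 134, 57.6 and 214 CPM in control neutrophils (log2 3.54 ± 0.39, edgeR adjusted p = 1.74e-05). Its near-identical copies Bcl2a1a and Bcl2a1d also rose, with 3 and 1 control UMIs, and reads cannot be assigned among the copies with certainty. Lcn2 stood at 3754, 4795 and 2509 CPM in rhabdomyolysis neutrophils, against 897, 1209 and 641 CPM in control neutrophils (log2 2.21 ± 0.30, edgeR adjusted p = 1.10e-04). Fth1 stood at 22599, 27772 and 19497 CPM in rhabdomyolysis neutrophils, against 7756, 13129 and 13622 CPM in control neutrophils (log2 1.21 ± 0.22, edgeR adjusted p = 0.00114).

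Feedback and granule lists held calls in both directions, beside 11.0% of all genes higher and 5.46% lower in rhabdomyolysis. Of 10 NF-kB inhibition and feedback genes tested, 4 were higher, namely Tnfaip3, Dusp2, Ier3 and Socs3, and 1 was lower, the RNA-decay factor Zfp36 at 1619, 1928 and 2041 CPM in rhabdomyolysis neutrophils, against 3631, 5470 and 6143 CPM in control neutrophils. On the same genes, the call of Dusp2 was lost without control library 1 (log2 1.99), and that of Tnfaip3 without control library 1 or 2 (2.11 and 2.25). That of Ier3 was lost without rhabdomyolysis library 1 when genes were filtered anew (1.65). Of 11 secondary and tertiary granule genes, 4 were higher and 1 lower, but Lyz2, among the higher ones, took a log2 change of -1.11 without the members over 5000 UMIs, where 2 genes of the list were higher and none lower. On the same genes its call was also lost without rhabdomyolysis library 1 or control library 2 or 3 (log2 0.81 to 1.09). Of 13 neutrophil markers not used by the rule, 2 were higher and 3 lower: Slpi, a secreted protease inhibitor, stood at 1726, 1159 and 2160 CPM in rhabdomyolysis neutrophils, against 4797, 5874 and 4327 CPM in control neutrophils. Of 39 oxidative phosphorylation genes 1 was called, and of 7 NADPH oxidase genes none, against the 16.4% called over all genes.

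Atf3, Fosb, Fos and Slc2a3 fell. Atf3, a stress-induced repressor, stood at 266, 88.7 and 261 CPM in rhabdomyolysis neutrophils, against 1031, 1094 and 2457 CPM in control neutrophils (log2 -2.74 ± 0.41, edgeR adjusted p = 2.63e-04). Fosb stood at 278, 160 and 365 CPM in rhabdomyolysis neutrophils, against 1838, 921 and 1335 CPM in control neutrophils, and Fos at 2936, 2872 and 3248 CPM in rhabdomyolysis neutrophils, against 7173, 6449 and 6677 CPM in control neutrophils. Groups did not overlap for any of these 3 genes, as for 38.6% of all genes tested. The call of Fos was lost without control library 1 when genes were filtered anew (log2 -0.67) and held on the same genes. Of 23 transcription factors tested, 7 were lower and 4 higher, beside 5.46% and 11.0% of all genes. Atf3 in monocytes ran the other way, at 766, 385 and 785 CPM in rhabdomyolysis and 310, 414 and 334 CPM in control, with overlap, and that difference between the classes was not tested. Slc2a3, the glucose transporter GLUT3, stood at 53.2, 39.4 and 97.5 CPM in rhabdomyolysis neutrophils, against 583, 346 and 801 CPM in control neutrophils (log2 -3.02 ± 0.46, edgeR adjusted p = 2.63e-04). Lst1 and Jaml, membrane proteins of myeloid cells, fell by 2.51 and 2.70 on the log2 scale. Ighm, the B cell heavy chain, had 4.09, 0 and 18.9 CPM in rhabdomyolysis neutrophils, against 134, 288 and 160 CPM in control neutrophils. Its level in free RNA moved with it, at 89.7, 61.3 and 76.5 CPM in rhabdomyolysis and 480, 386 and 385 CPM in control, and the part of free RNA in the change was not tested. A fit with estimated free RNA subtracted called 240 of 1532 genes, 174 higher and 66 lower. Ighm was among the genes that set that estimate, so this fit cannot measure the part of free RNA in its change.

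Another group of calls moved with the members over 5000 UMIs. Of 7 monocyte and macrophage receptor genes tested, 5 were higher in rhabdomyolysis neutrophils, beside 11.0% of all genes, and without those members 1 of 3 was. S100a4 had 523, 439 and 610 CPM in all rhabdomyolysis neutrophils and 0 CPM in control neutrophils, but 18.1, 88.9 and 4.41 CPM in those of 5000 UMIs or fewer. Ms4a6c had 433, 175 and 311 CPM in all rhabdomyolysis neutrophils and 0 CPM in control neutrophils, but 12.1, 9.88 and 4.41 CPM in those of 5000 UMIs or fewer. Plac8 and Ccl2 followed the same course, and none of these 4 genes had enough counts to be tested without the larger members. Vim, a filament protein, stood at 1685, 1176 and 1349 CPM in rhabdomyolysis neutrophils, against 134, 57.6 and 107 CPM in control neutrophils (log2 3.94 ± 0.40, edgeR adjusted p = 9.25e-06), and was 2.76 on the log2 scale without the larger members. The sum of 10 classical monocyte markers was 2335, 1294 and 2009 CPM in rhabdomyolysis neutrophils, with 9 to 10 detected, and 224, 115 and 214 CPM in control neutrophils, with 2 to 3 detected. Ccr2, F13a1, Fn1 and Vcan were at 0 in all control neutrophils.

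**Figure D3:**
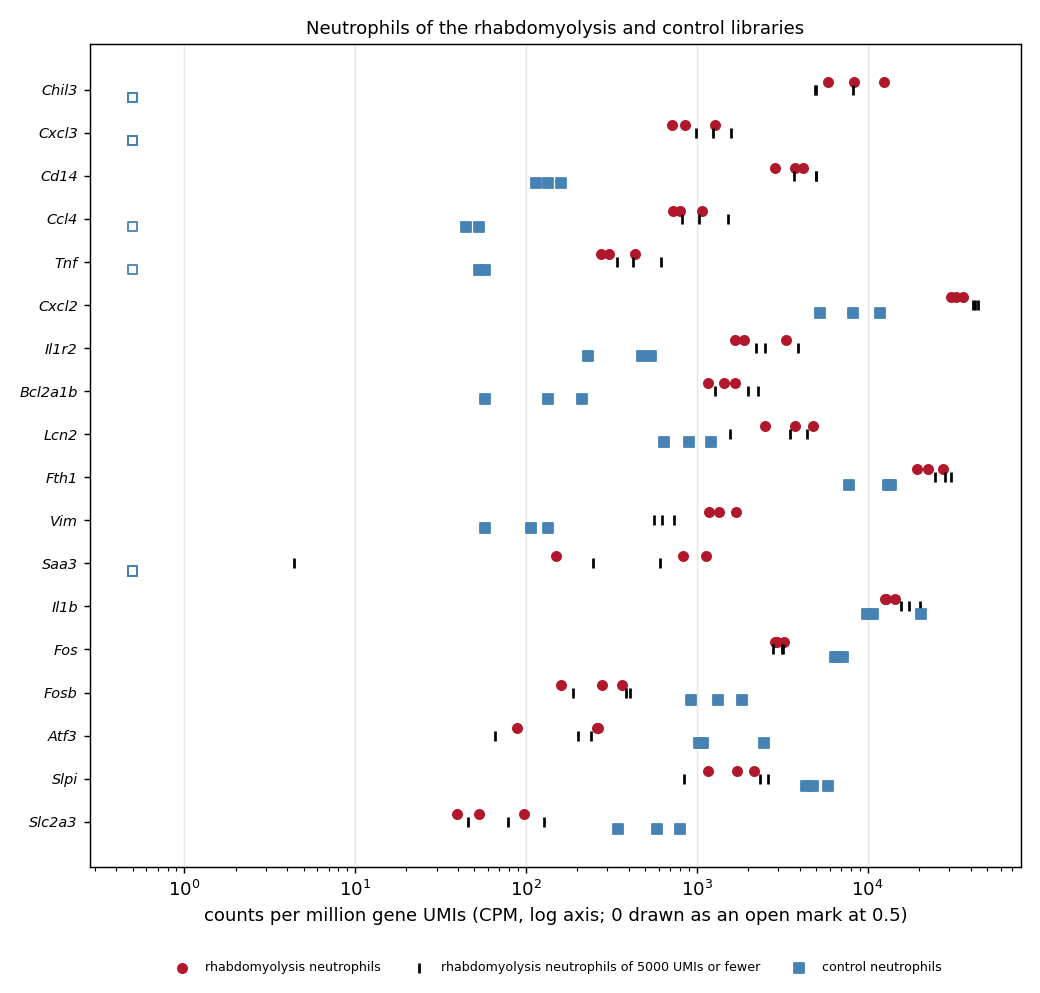
Level of 18 genes in neutrophils of the rhabdomyolysis (circles) and control (squares) libraries, in CPM on a log axis. Ticks show rhabdomyolysis neutrophils of 5000 UMIs or fewer. Chil3, Cxcl3 and Saa3 have open control marks at 0, Il1b overlaps between the groups, and the 3 rhabdomyolysis libraries lie left of the 3 control libraries for Fos, Fosb, Atf3, Slpi and Slc2a3.

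Within the rhabdomyolysis neutrophils, states were described by the UMIs of short gene lists after thinning each cell to 500 UMIs. The chemokine and cytokine list averaged 32.2, 23.9 and 27.4 UMIs per neutrophil in rhabdomyolysis libraries 1 to 3, with 10th to 90th percentiles of 5.2 to 67.2, 0 to 53 and 2 to 54.3. In control neutrophils it averaged 10.5, 5.88 and 18.9 UMIs, and in rhabdomyolysis monocytes 4.47, 3.13 and 2.70. At 3 UMIs or more, 92.2%, 69.3% and 88.3% of rhabdomyolysis neutrophils held the list. Glucocorticoid-responsive genes reached 3 UMIs in 62.1%, 58.7% and 57.0% of rhabdomyolysis neutrophils, in 70%, 75% and 62.5% of control neutrophils and in 3.33%, 19.6% and 1% of rhabdomyolysis monocytes. The glucocorticoid list holds Il1r2, which is also a neutrophil marker, and its shares without that gene were not computed. Interferon response genes reached 3 UMIs in 1.94%, 4.47% and 14.1% of rhabdomyolysis neutrophils. These shares depend on the number of UMIs to which each cell is thinned: the mean for the interferon list was 6.82% at 500 UMIs, 17.6% at 1000 UMIs and 38.7% without thinning.

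**Figure D4:**
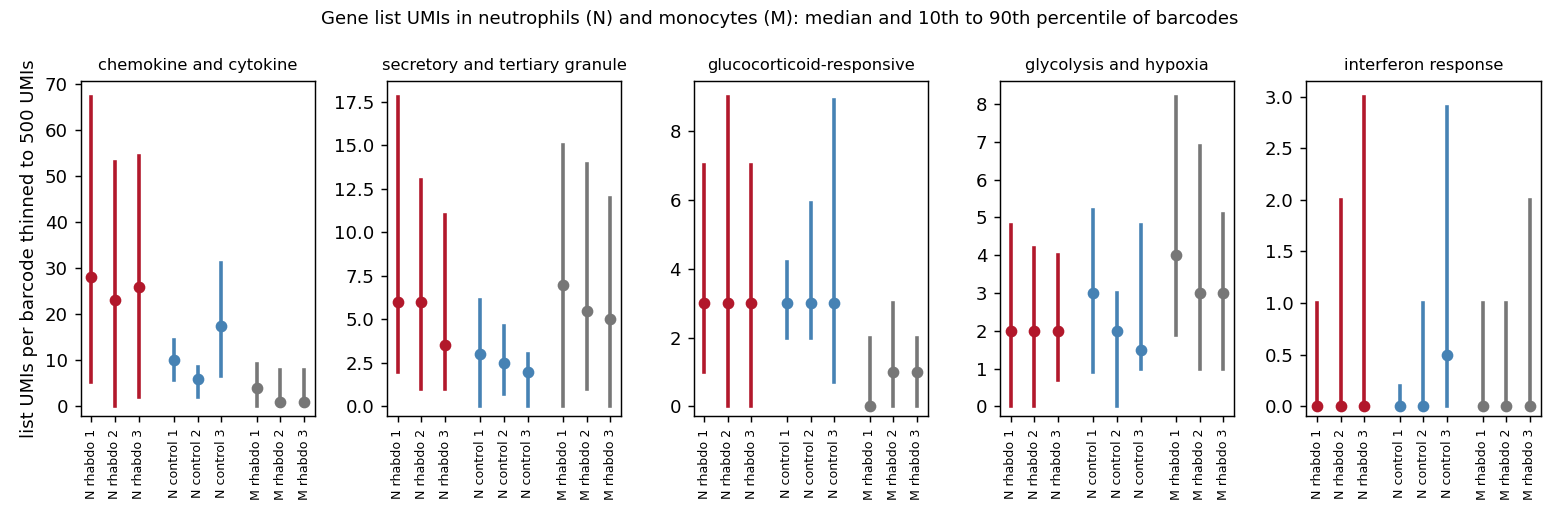
UMIs of 5 gene lists per barcode thinned to 500 UMIs, as the median (point) and 10th to 90th percentile (bar) of the barcodes of each library, for rhabdomyolysis neutrophils, control neutrophils and rhabdomyolysis monocytes. The chemokine and cytokine list spans 0 to 67.2 UMIs in rhabdomyolysis neutrophils.

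The leading components of variation among the 410 rhabdomyolysis neutrophils each held 5.15% of the variance or less. They are given as a description over barcodes that share libraries and depth. The leading component over 1157 genes, with 5.15% of the variance, had Cxcl2, Il1b, Malat1, Nfkbia and Cd14 at one end and ribosomal protein genes at the other. The next, with 2.20%, had Ifitm1, Wfdc17, Wfdc21 and the rule's own Retnlg and S100a9 against Chil3, Malat1, Cxcl2, Ier3 and Bcl2a1b. The third, with 1.41%, had Fos, Dusp1, Klf2 and Malat1 against Cotl1, Bcl2a1b, AA467197 and Cd9. Across the 103, 179 and 128 cells of the 3 libraries, Spearman's correlation of the chemokine list with the glucocorticoid list was 0.33, 0.57 and 0.20, and with Malat1 0.17, 0.58 and 0.43. With a cell's gene UMIs before thinning, the chemokine list correlated at 0.055, 0.48 and 0.062, and Malat1 at -0.21, 0.39 and -0.21.

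Neutrophils without a Malat1 UMI stood apart. They numbered 4, 50 and 11 in rhabdomyolysis libraries 1 to 3 and 0 in the control libraries, at medians of 858.5, 665.5 and 603 UMIs, against 1820, 2209 and 2156 UMIs in the rhabdomyolysis neutrophils with Malat1. The genes of the rule are left out of this comparison, since each member had to hold them. Cxcl2 had a UMI in 25%, 20% and 36.4% of those without Malat1, against 97.0%, 92.2% and 94.0% of those with it. Cd14 had a UMI in 25%, 20% and 18.2% of those without Malat1, against 88.9%, 93.0% and 87.2% of those with it. Fth1 was present in nearly every cell of either kind, at 100%, 98.0% and 100% without Malat1 and 100% with it in each library. The kinds differ in depth by over 2-fold, and depth was not matched in these shares.

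**Figure D5:**
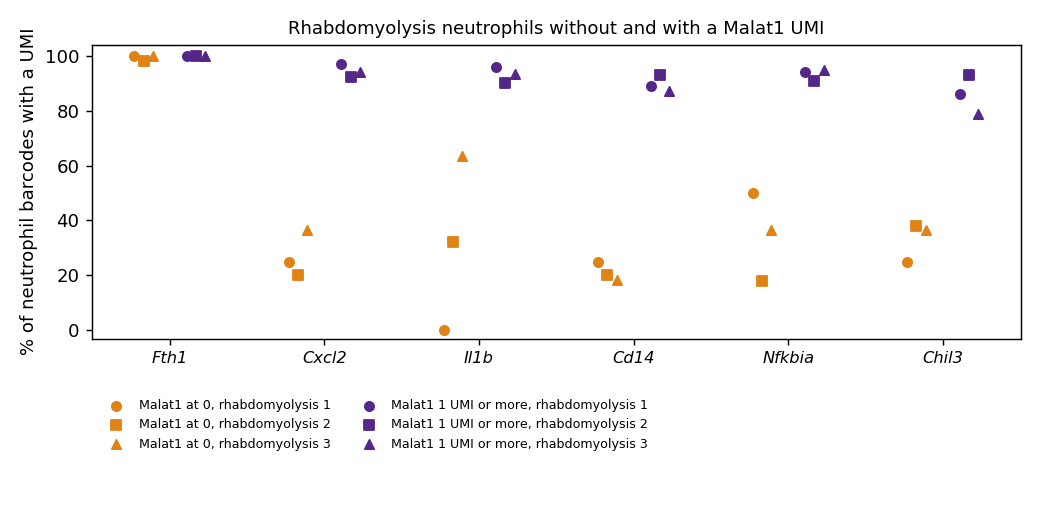
Percentage of rhabdomyolysis neutrophils with a UMI of 6 genes, without (left of each pair) and with (right) a Malat1 UMI, the 3 libraries by marker shape. Fth1 lies at 98.0% or more in both kinds, while Cxcl2, Cd14, Nfkbia and Chil3 lie at 50% or below in those without Malat1.

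Antibody tags were fewer per barcode on neutrophils than on the deeper monocytes, and the direction depended on the scale. The F4/80 tag, which binds a macrophage surface protein, averaged 2.80, 5.47 and 4.56 counts per neutrophil and 10.2, 24.2 and 28.1 per monocyte in rhabdomyolysis libraries 1 to 3, a mean log2 difference of -2.21 (SD 0.38). As a share of all tag counts it was 26.7%, 34.7% and 27.0% on neutrophils and 42.6%, 40.2% and 39.4% on monocytes. P2X7R, an ATP-gated channel, averaged 0.893, 1.68 and 1.63 counts per neutrophil and 3.23, 8.78 and 8.36 per monocyte. Every library had lower counts on neutrophils for both tags, and the 2-sided exact sign-flip permutation test gave p = 0.25, the smallest that 3 libraries allow. CD8a and CD3, which neutrophils should lack, were lower per neutrophil but higher as a share of tags, by 0.55 and 0.71 on the log2 scale. Per 10000 gene UMIs, F4/80 was 11.8, 24.1 and 18.4 on neutrophils and 11.6, 24.0 and 24.6 on monocytes, and P2X7R was 3.76, 7.40 and 6.57 on neutrophils and 3.68, 8.73 and 7.32 on monocytes. On that scale CD8a was 12.2, 15.8 and 16.6 on neutrophils and 5.04, 8.61 and 11.3 on monocytes.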

How the data were processed

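Droplet 3' gene and antibody tag libraries of CD45+ kidney cells were analysed, 3 rhabdomyolysis and 3 control. The deposited matrices hold whole-number UMI counts per gene and barcode, unfiltered, made by the authors with Cell Ranger on mm10, per the submitters' processing notes; other steps are not given in the sources used here. The 10-gene rule, the monocyte and macrophage gates and the gene lists were chosen with earlier results of these data known. Barcodes called as doublets by a simulated-doublet score were counted, not removed. Library sums of at least 5 barcodes were tested with edgeR 4.0.16 (R 4.3.3; quasi-likelihood, TMM, genes filtered on low counts, Benjamini-Hochberg), with a library block for neutrophils against monocytes or macrophages and none for rhabdomyolysis against control. DESeq2 1.42.0 was an alternative. Scripts were tested on simulated data. Named genes passed 0.05, averaged log2 CPM of at least 5 and separated all libraries (the 15 largest rises and 10 largest falls), or were list members; genes of the plots and of the Malat1 and depth splits were chosen after their values were seen. Alternatives covered scaling, filters, the rule's limits, free RNA and left-out libraries; library totals, members of 5000 UMIs or fewer, left-out libraries on the reported fit's genes and some others were added after the data were seen. Each library gave 10816727 to 22656666 gene UMIs; intervals cover counting error only.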

Additional observations from a re-analysis of the deposited data

Results flagged for a closer look

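Barcodes of 300 or more but fewer than 500 UMIs were not used by the comparisons. With at least 100 genes, 24, 117 and 33 of them met the rest of the neutrophil rule in rhabdomyolysis libraries 1, 2 and 3, against 4, 6 and 1 in the control libraries. The same genes chose these barcodes as chose the neutrophils. Free RNA held 0.460%, 0.539% and 0.371% S100a8 and S100a9 in rhabdomyolysis libraries 1 to 3. It held 0.0140%, 0.0249% and 0.00897% in control libraries 1 to 3, and the part of free RNA in these counts was not tested. The barcodes drew notice as a signal outside the main measurement that was above the control level in every rhabdomyolysis library. Rhabdomyolysis library 2, which has the most of them, also has the most neutrophils without a Malat1 UMI (50, against 4 and 11 in rhabdomyolysis libraries 1 and 3).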

How the results depend on the processing

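Of rhabdomyolysis against control neutrophils, the count of called genes was 271 in the fit reported and 124 without members that had a monocyte UMI, 119 without members over 5000 UMIs, 123 to 194 when 1 library was left out and genes were filtered anew, and on the same 1649 genes 191, 242 and 280 without rhabdomyolysis library 1, 2 and 3 and 165, 152 and 169 without control library 1, 2 and 3. Fewer genes were tested without those members (1178 and 1273) or without a rhabdomyolysis library (380 to 385), and more without a control library (3193 to 3278). Of neutrophils against monocytes, 2222 calls became 1465 with DESeq2. Among 74 genes followed between the groups, 1443 values kept direction and side of the threshold, 189 lost the call and 2 gained it. Lyz2 turned to -1.31 without members that had a monocyte UMI and to -1.11 without members over 5000 UMIs. Against monocytes, Chil3 took -0.33 to 0.086 when 1 library was left out, and above 0 only without rhabdomyolysis library 2. Il1b, not called in the reported fit, took -0.051 with library totals, -0.11 to 0.77 when 1 library was left out, and on the same genes -0.022 without control library 1, -0.080 without control library 2 and 0.55 without control library 3. For equal replicate numbers, the correlations of deviations from the group means ran from -0.025 to 0.031. They rest on control sums of few cells and cannot tell whether equal numbers pair the libraries. With a replicate block, 275 genes were called. The neutrophil share was 8.17% in rhabdomyolysis and 0.291% in control at Malat1 of 0.1% or more, where fewer barcodes remain in the denominator. In control it was 0.212% at 1000 UMIs and 0.231% at 300 UMIs. Per barcode, the CD8a and CD3 tags turned to -1.18 and -1.03, and per 10000 gene UMIs the CD4 tag turned to 0.34. Shares of rhabdomyolysis neutrophils with 3 UMIs of a list were higher at more UMIs than at 500 for 4 lists. The granule list reached 92.5% at 1000 UMIs and 94.5% unthinned (52.0% at 500 UMIs without Chil3), the interferon list 17.6% and 38.7%, the glycolysis list 76.1% and 87.7%, and the glucocorticoid list 88.0% and 87.8%. Without members that had a monocyte UMI, glycolysis was 37.8% and glucocorticoid 66.3%. The 26 control neutrophils limit what can be seen.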

Other observations

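Among rhabdomyolysis neutrophils, granule genes of the secretory and tertiary list reached 3 UMIs in 84.5%, 79.3% and 68.0% of cells thinned to 500 UMIs, against 50%, 50% and 25% of control neutrophils. Chil3 is on that list, and without it the shares were 55.3%, 60.9% and 39.8% of rhabdomyolysis neutrophils, against 50%, 50% and 25% of control neutrophils. Glycolysis and hypoxia genes did so in 41.7%, 39.7% and 38.3% of rhabdomyolysis neutrophils, 50%, 25% and 37.5% of control neutrophils, and 73.3%, 62% and 58.0% of rhabdomyolysis monocytes. Mmp8, the neutrophil collagenase, had a UMI in 33%, 27.4% and 25.8% of rhabdomyolysis neutrophils and 40%, 50% and 25% of control neutrophils. Control groups are 10, 8 and 8 cells, so these shares move in large steps.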
